A study of Mus musculus with 20 samples.

Results

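Genes of coagulation and fibrinolysis that endothelium is known to use were followed in the endothelial and whole-tumor RNA of mouse mammary tumors. They were the 9 rows, of 55866 in the count table, whose gene name was Vwf, F8, F3, Tfpi, Thbd, Procr, Plat, Plau or Plaur, and all 9 passed the filter on low counts in every comparison. Vessel walls keep blood fluid and seal leaks through these genes. Von Willebrand factor (Vwf) tethers platelets and carries factor VIII (F8), and tissue factor (F3) starts the clotting cascade. Tissue factor pathway inhibitor (Tfpi), thrombomodulin (Thbd) and the endothelial protein C receptor (Procr) restrain that cascade, while tissue-type plasminogen activator (Plat), urokinase (Plau) and the urokinase receptor (Plaur) generate plasmin, which dissolves fibrin.

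The tumors were Py8119 mouse mammary carcinomas grown orthotopically in a mammary fat pad of RiboTagEC mice, which were female, on a C57BL/6J background and Rpl22HA/HA crossed with Cdh5CreERT2. In these mice tamoxifen, given to both treatment groups at 75 mg/kg for 5 days from 3 weeks of age, switches the ribosomal protein Rpl22 to an HA-tagged form wherever the endothelial Cdh5-driven Cre is active, so that an anti-HA immunoprecipitation (IP) recovers ribosome-bound mRNA of those cells. Tumors were implanted at 8 weeks. Over 10 days the mice then received repeated, but not daily, intravenous injections of control mouse IgG or of 25 mg/kg of 6-3-A6, an antibody that neutralizes Notch4. From each of 5 tumors per group both the homogenate (input) and the IP were sequenced as 100 bp reads, giving 20 libraries. The labels and methods do not state what share of endothelial cells carried the tag, and the start volume of treatment is given as about 30 mm3 in the protocol and 50 mm3 in the design text.

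Total counts ranged from 11881214 to 26728205 per library, with a median of 16942643. Levels are given as CPM, read counts scaled to a common library size with TMM factors over the 20 libraries and not divided by length, so they compare samples and not genes. For the 6-3-A6 samples the short description in the labels names the opposite fraction to the title, and the title was followed. The endothelial label of the IP fraction was checked with 12 marker genes: all 12 were higher in IP, by a median of 4.44 on the log2 scale, and the defining markers Pecam1 and Cdh5 were present in every library. The mean log2 CPM of those 12 markers was between 2.02 and 3.62 in the inputs, and between 5.67 and 8.27 in the IP libraries. Control IgG IP 4 (5.95) and 6-3-A6 IP 2 (5.67) stood lowest among the IP libraries. Among the inputs, 6-3-A6 input 4 had a TMM factor of 0.680, against 0.894 to 1.12 in the other 19. The study had kept 3 IP libraries per group, control IgG 2, 4 and 5 and 6-3-A6 1, 3 and 4. By the paper's account, an initial principal component analysis resolved treated and control samples poorly, and their separation became clearer once outliers were removed. The choice thus followed a look at the contrast tested here. Treatment p-values and overlap counts in those 6 libraries therefore cannot be read as coming from an unselected set. Every treatment comparison below is given for those 6 libraries and for all 10.

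Reads had been counted over whole gene spans. The spans were, in the coordinates of the count table, chr6:125523737-125663642 (Vwf), chrX:74216321-74426221 (F8), chr3:121517186-121528697 (F3), chr2:84263199-84307119 (Tfpi), chr2:148246386-148250108 (Thbd), chr2:155593037-155597391 (Procr), chr8:23247743-23272860 (Plat), chr14:20886728-20893453 (Plau) and chr7:24161909-24175393 (Plaur). These positions differ from the GRCm38 annotation for all 9 genes, although the methods name mm10. Thbd is a single exon, whereas exons make up 4.72% of the F8 span and 11.5% of the Vwf span, and the counts of those genes can include intronic reads. The F8 span is also the only one of the 9 that overlaps other annotated genes, over 1.62% of its length.

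RefSeq windows of 250 bases before a transcription start (GRCm38.p6) were matched for 5 of the 9 genes, in 6 windows, because Tfpi has a pair of starts. Vwf, Thbd, Plat and Plau had no entry. The windows were searched on both strands for 4 short motifs, whose letters are given below with their shares and which do not overlap one another in these sequences. Below are Procr and Tfpi, which were higher in IP, and F3, which was higher in input, so that the upstream sequence of genes on both sides of the fraction comparison can be read side by side, 5′ to 3′, with motif matches in capitals. The Procr and Tfpi sequences stop before the first base of the window that lies in a GENCODE M21 exon of the gene. The Tfpi window shown lies downstream of the other Tfpi start, within the span transcribed from there.
Procr, chr2:155750967-155751116, plus strand: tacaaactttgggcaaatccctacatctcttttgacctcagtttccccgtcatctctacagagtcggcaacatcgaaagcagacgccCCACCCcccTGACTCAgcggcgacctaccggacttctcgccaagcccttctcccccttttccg
Tfpi, downstream start, chr2:84474186-84474424, minus strand: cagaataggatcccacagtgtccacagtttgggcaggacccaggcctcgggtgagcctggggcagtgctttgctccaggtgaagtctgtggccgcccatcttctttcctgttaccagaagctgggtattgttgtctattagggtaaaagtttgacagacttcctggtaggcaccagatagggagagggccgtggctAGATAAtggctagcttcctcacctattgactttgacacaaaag
F3, chr3:121723287-121723536, plus strand: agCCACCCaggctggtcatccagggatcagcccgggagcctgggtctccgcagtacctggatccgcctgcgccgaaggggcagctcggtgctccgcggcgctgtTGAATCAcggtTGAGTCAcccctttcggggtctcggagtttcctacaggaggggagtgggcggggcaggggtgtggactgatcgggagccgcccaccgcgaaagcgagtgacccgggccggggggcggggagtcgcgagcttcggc
In the Procr window a KLF match lies 163 bases and an AP-1 match 154 bases before the start, and an ETS match at 85 bases falls in the part not printed. The F3 window holds a pair of AP-1 matches, 146 and 135 bases before the start, and a KLF match at 248 bases. The downstream Tfpi start has a GATA match at 54 bases, while the upstream start and the F8 window hold none of the 4 motifs. Plaur has an AP-1 match at 69 bases. Of 32851 windows of this length, 13.6% hold the ETS letters CGGAAG on either strand. The AP-1 letters TGANTCA are in 6.75%, the KLF letters CCACCC in 28.1% and the GATA letters AGATAA in 9.99%. A match is a description of the letters and no test of binding.

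To determine which of the 9 genes belonged to the endothelial fraction, IP was compared with input over both treatment groups. Vwf, Tfpi, Procr and F8 were higher in IP, F3 and Plat were lower, and Thbd, Plau and Plaur did not pass the test. Thus 6 of 9 were called, where 40.4% of the 14488 genes tested were called in either direction (19.6% higher and 20.8% lower). The median log2 fold change was 0.37 for the 9 genes and -0.06 for all genes tested. In these bulk samples, fewer cells of a type and less RNA per cell cannot be told apart.

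Vwf, the platelet-tethering protein stored in endothelial granules, stood furthest apart. In control IgG tumors its input levels were 14.4, 15.8, 18.5, 12.5 and 12.3 CPM in tumors 1 to 5, and its IP levels were 238, 191, 280.5, 39.2 and 92.2 CPM. In 6-3-A6 tumors the inputs held 20.2, 13.1, 14.4, 6.73 and 12.6 CPM and the IP libraries 200.5, 47.5, 143, 114 and 135 CPM. Every IP library was above every input library (4.8% of all genes tested had fractions without overlap, in either direction), and the lowest IP values were in control IgG 4 and 6-3-A6 2, the libraries with the lowest endothelial marker level. The log2 fold change was 3.38 (SE 0.31; adjusted p = 1.29e-08, edgeR quasi-likelihood test), a 10.4-fold difference, and 98.3% of tested genes lay below it. Relative to the mean difference of the 12 endothelial markers in the same tumor, that of Vwf was between -1.91 and -0.34 on the log2 scale, so it was the smaller in every tumor. Platelets also hold Vwf mRNA: of 8 platelet and megakaryocyte markers, 4 passed the filter, of which 1 was lower in IP, none was higher and 3 were not called, with values from -1.02 to 0.28. Their part in the Vwf value was not tested.

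F8, the clotting cofactor that Vwf carries, was present at a few CPM. Its control IgG inputs were 1.11, 1.78, 1.96, 2.09 and 2.37 CPM and the IP libraries 1.81, 3.22, 3.35, 2.71 and 6.25 CPM. In 6-3-A6 tumors input held 1.93, 2.47, 0.901, 3.26 and 1.04 CPM and IP 3.33, 3.04, 2.08, 2.37 and 2.00 CPM. The ranges overlapped, although IP exceeded input within 9 of 10 tumors, the exception being 6-3-A6 tumor 4. The log2 fold change of 0.66 (SE 0.26; adjusted p = 0.0431, edgeR) rested on 13 to 159 reads per library. With the 6 tumors kept by the study it was 0.68 (adjusted p = 0.145). It also lost significance when control IgG tumor 2, 3 or 5 or 6-3-A6 tumor 1, 3 or 5 was left out, with adjusted p from 0.0546 to 0.0946, and without the filter on low counts (adjusted p = 0.0504).

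**Figure D1:**
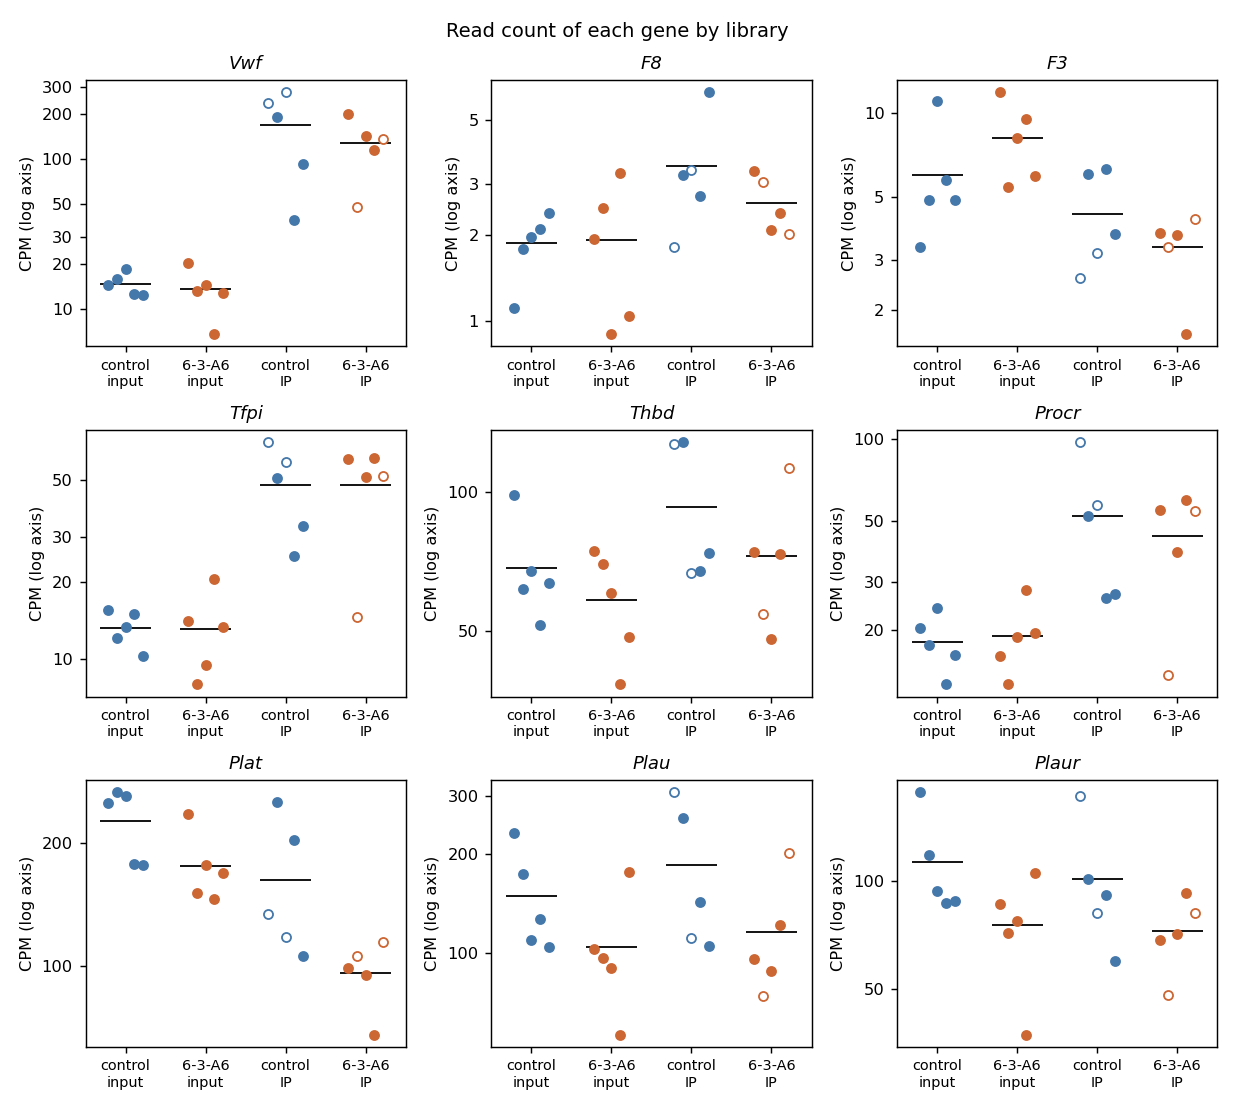
Level of each of the 9 genes in every library, in CPM on a log axis, for control IgG (blue) and 6-3-A6 (orange) inputs and IP libraries. Points are tumors, open points are IP libraries that the study left out, and bars are means of 5. Vwf is above all inputs in all 10 IP libraries, most IP libraries are above all inputs for Tfpi and Procr and below all inputs for Plat, and the remaining genes overlap.

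The initiator of clotting and its inhibitor lay on opposite sides. Tfpi, which blocks the tissue factor complex at the endothelial surface, was at 15.5, 12.1, 13.3, 14.9 and 10.3 CPM in control IgG inputs and at 70.2, 50.6, 58.8, 25.3 and 33.0 CPM in the matching IP libraries. Under 6-3-A6 the inputs were 14.1, 7.97, 9.46, 20.6 and 13.4 CPM and the IP libraries 60.1, 14.7, 51.4, 60.5 and 51.6 CPM. IP was above input in all 10 tumors. Only 6-3-A6 IP 2, at 14.7 CPM, fell within the range of the inputs. The log2 fold change was 1.86 (SE 0.23; adjusted p = 1.95e-06, edgeR), or 3.62-fold, and 95.8% of tested genes lay below Tfpi.

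F3, the receptor that triggers coagulation when blood meets tissue, went the other way. Control IgG inputs held 3.34, 4.91, 11, 5.77 and 4.88 CPM and IP libraries 2.59, 6.04, 3.19, 6.31 and 3.69 CPM, which overlapped. The 6-3-A6 inputs held 11.8, 5.43, 8.11, 9.46 and 5.94 CPM and the IP libraries 3.74, 3.35, 3.69, 1.63 and 4.21 CPM, without overlap. Over both groups the log2 fold change was -0.87 (SE 0.25; adjusted p = 0.00925, edgeR), with IP below input in 8 of 10 tumors. Among the tested genes, 9.9% lay below F3. With only the 6 tumors kept by the study the value was -0.82 (adjusted p = 0.0904). Among markers of other cell types, 7 of 10 tested macrophage markers were called lower in IP (median log2 fold change -0.79), beside 20.8% of all genes. The call was made for 2 of 7 fibroblast markers (median -0.59) and 2 of 6 epithelial markers (median -0.45), and 2 markers of each of those lists had values above 0. Of 5 neutrophil markers 1 was lower (median -1.23), while of 6 mural markers 1 was higher and none lower (median -0.14). The part of these cells in the F3 value was not tested.

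The protein C branch was uneven. Procr, which presents protein C to thrombomodulin, measured 20.2, 17.6, 24.0, 12.6 and 16.1 CPM in control IgG inputs and 97.4, 52.3, 57.2, 26.1 and 27.1 CPM in their IP libraries. The 6-3-A6 inputs were at 16.0, 12.6, 18.9, 28.1 and 19.4 CPM and the IP libraries at 54.9, 13.7, 38.6, 59.6 and 54.3 CPM. Control IgG fractions were fully separated, whereas 6-3-A6 IP 2 lay at the level of the inputs. IP was higher in all 10 tumors, with a log2 fold change of 1.37 (SE 0.25; adjusted p = 2.36e-04, edgeR). Thbd, the partner that turns thrombin into an activator of protein C, overlapped between the fractions: 98.3, 61.8, 67.5, 51.6 and 63.5 CPM in control IgG inputs against 126, 128, 66.7, 67.5 and 73.9 CPM in IP, and 74.7, 69.9, 60.6, 38.5 and 48.7 CPM in 6-3-A6 inputs against 74.1, 54.5, 48.2, 73.5 and 113 CPM in IP. Its log2 fold change was 0.37 (SE 0.18; adjusted p = 0.0987), with IP above input in 6 of 10 tumors.

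The plasminogen activators and their receptor were not higher in the IP fraction by the test. Plat, the vascular plasminogen activator, was at 249.6, 266, 259, 178 and 177 CPM in control IgG inputs and 134, 251, 117, 204 and 105 CPM in IP. The 6-3-A6 inputs held 235, 151, 177, 145 and 168 CPM and the IP libraries 99.1, 106, 94.9, 68.0 and 114 CPM, and here every IP library was below every input. IP was below input in 9 of 10 tumors, all but control IgG tumor 4, and the log2 fold change was -0.67 (SE 0.16; adjusted p = 0.00263, edgeR). With the 6 tumors kept by the study it was -0.62 (adjusted p = 0.0897).

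Plau, the activator known from invading tumor and stromal cells, ranged from 104 to 232 CPM in control IgG inputs (median 127) and from 105 to 309 CPM in IP (median 143). In 6-3-A6 tumors it ranged from 56.3 to 176 CPM in input and from 74.0 to 201 CPM in IP. Its receptor Plaur ranged from 86.8 to 177 CPM in control IgG inputs and from 59.6 to 173 CPM in IP, and from 37.2 to 106 CPM in 6-3-A6 inputs against 48.1 to 92.4 CPM in IP. Neither gene separated the fractions, with log2 fold changes of 0.23 (SE 0.24; adjusted p = 0.454) for Plau and -0.11 (SE 0.20; adjusted p = 0.676) for Plaur. Both genes had their largest IP excess in 6-3-A6 tumor 4 (1.10 and 1.31 on the log2 scale), the tumor whose input library had the low TMM factor. Plaur was below input in 8 of the 10 tumors, and Plau above it in 7.

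Within each treatment group the order of the genes was alike at the top. In control IgG tumors 3 of 9 genes were called, against 11.4% of all genes (1649, or 3249 with the tumor as a block): Vwf (log2 fold change 3.52, SE 0.44; adjusted p = 7.85e-06), Tfpi (1.84, SE 0.34; adjusted p = 6.71e-04) and Procr (1.52, SE 0.37; adjusted p = 0.00824). In 6-3-A6 tumors 5 of 9 were called, against 26.3% of all genes: Vwf (3.25, SE 0.44), Tfpi (1.87, SE 0.34), Procr (1.22, SE 0.36; adjusted p = 0.0173), F3 (-1.29, SE 0.34; adjusted p = 0.00858) and Plat (-0.86, SE 0.23; adjusted p = 0.00875). Procr lost its call without control IgG tumor 1 (1.21, adjusted p = 0.0587) and, in the other group, without 6-3-A6 tumor 1 (1.08, adjusted p = 0.0788). F8 in control IgG tumors stood at 0.90 (SE 0.36; adjusted p = 0.115), and at 0.83 (adjusted p = 0.0412) with the tumor as a block. The fractions did not overlap for Vwf, Procr and Tfpi in control IgG tumors (12.9% of all genes did not) and for Vwf, F3 and Plat in 6-3-A6 tumors (14.7%). That F3 and Plat were called in 6-3-A6 tumors alone does not show a difference between the groups. The test of that difference, the interaction of treatment and fraction, gave -0.84 (SE 0.48, unadjusted p = 0.0911) for F3 and -0.39 (SE 0.32, unadjusted p = 0.240) for Plat. Leaving out 1 tumor moved these between -1.27 (without control IgG 3) and -0.61 (without 6-3-A6 4) for F3 and between -0.54 (without control IgG 3) and -0.20 (without control IgG 4) for Plat. None of the 9 genes had an unadjusted p under 0.05 in the interaction. Among all genes, edgeR and DESeq2 both called 0 there (0.0%), with 125 (0.863%) at an unadjusted p under 0.05 in edgeR.

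**Figure D2:**
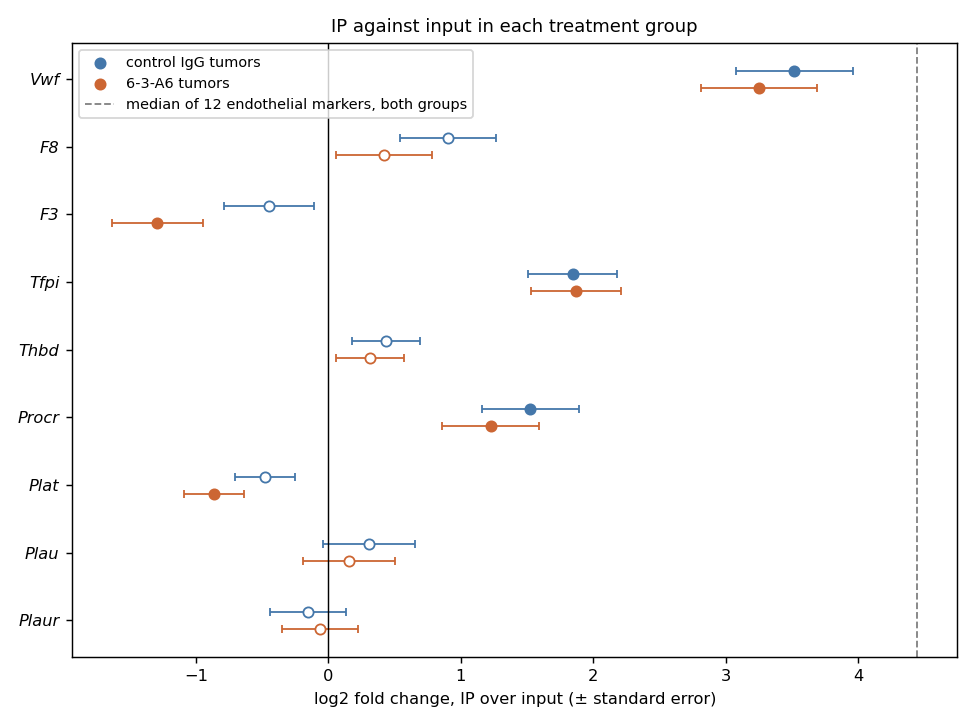
Log2 fold change of IP over input for the 9 genes in control IgG (blue) and 6-3-A6 (orange) tumors, with standard errors, 5 tumors per group. Filled points passed an adjusted p of 0.05 and open points did not, and the dashed line marks the median of 12 endothelial markers, 4.44. Vwf, Tfpi and Procr lie to the right of 0 in both groups and short of the dashed line, and F3 and Plat lie to the left.

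Since the level of endothelial markers differed between IP libraries, the levels of the 9 genes were set against the mean of the 12 endothelial markers over the 10 IP libraries. Pearson's r was 0.98 for Tfpi, 0.93 for Procr and 0.92 for Vwf. It was 0.56 for Plaur, 0.40 for Thbd and 0.39 for Plau. F8 (-0.36), F3 (-0.44) and Plat (-0.26) had negative values. These coefficients describe 10 libraries whose points share library composition and scaling, and the markers spanned 5.67 to 8.27 in mean log2 CPM. With the mean of the macrophage markers the largest coefficients were those of Plat (0.69), F3 (0.67), Thbd (0.66) and Plau (0.65).

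**Figure D3:**
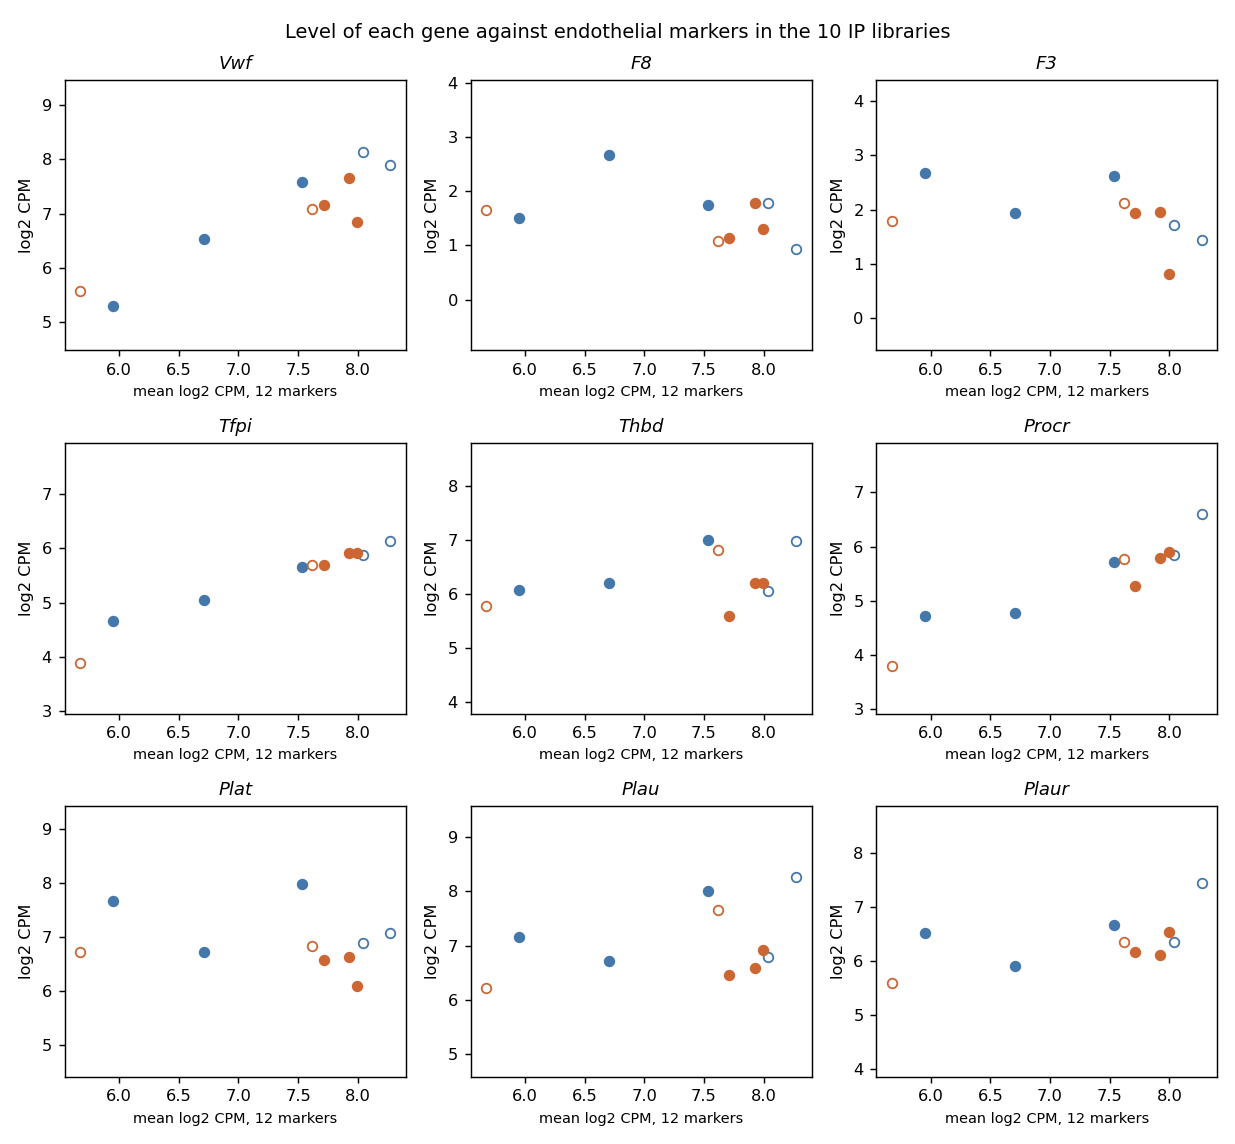
Log2 CPM of each of the 9 genes (y axes, each spanning the same number of log2 units) against the mean log2 CPM of 12 endothelial markers (x axes) in the 10 IP libraries, control IgG in blue and 6-3-A6 in orange, with open points for libraries that the study left out. Points of Vwf, Procr and Tfpi climb with the markers (r of 0.92, 0.93 and 0.98), and those of Plat, F3 and F8 do not.

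The levels of the 9 genes were also compared with each other over the same 10 libraries. Tfpi and Procr ran together (r = 0.96), as did Vwf with Tfpi (0.88) and Vwf with Procr (0.84). High values were also found between Thbd and Plau (0.93), Plau and Plaur (0.86) and Thbd and Plaur (0.69). These sets were not separate, since Procr reached 0.79 with Plaur, 0.65 with Plau and 0.63 with Thbd, and Tfpi reached 0.63 with Plaur. F3 was closest to Plat (0.82). F8 had its highest value with F3 (0.21) and its lowest with Plaur (-0.55), Procr (-0.44), Plau (-0.40) and Tfpi (-0.34).

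Of 14487 other tested genes, those most like each member by Pearson's r over the 10 IP libraries were as follows. Vwf was closest to Itgb3 (0.97), Notch4 (0.96), the target of 6-3-A6, and the VEGF receptor Flt1 (0.96). Vwf also had r = 0.92 with the endothelial marker mean over these libraries, and a link to these genes beyond that shared level was not tested. Tfpi was closest to Adcy4, Lrg1 and Pcdh12 (all 0.99), and Procr to Sparc (0.99), Ppic (0.99) and F11r (0.99). Thbd came nearest to Naglu, Mmp14 and Pros1 (all 0.95), the last of which encodes protein S, a cofactor of activated protein C. Plau was closest to Apmap (0.98), Mmp14 (0.96) and ENSMUSG00000121092 (0.96), and Plaur to Rcn2, Tmem181a and B3galt6 (all 0.96). For Plat the nearest were Bace1 (0.95), Ptgfrn (0.94) and Galnt2 (0.93), and for F3 Cadm1, Tgfbr3 and Sema5a (all 0.93). F8 was nearest to the immunoglobulin segment Igkv14-111 (0.97), Zbtb7c (0.94) and Rock2 (0.94). Mmp14, a membrane-bound matrix metalloproteinase, was the only gene listed for more than 1 of the 9.

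The effect of 6-3-A6 was then compared with control IgG in the endothelial fraction. In the 6 IP libraries that the study kept no member was called by edgeR, while 646 of 13999 genes were (4.61%). By DESeq2, 1 member was called, beside 1190 of 26830 genes with a p-value (4.44%), and 4 members had an unadjusted p under 0.05 in edgeR: Plat, F3 and Plau with lower levels under 6-3-A6 and Tfpi with a higher one (19.5% of all genes had such a p). Plat and Tfpi were without overlap between these groups of 3, as were 24.3% of all genes. Because the libraries were chosen after the separation of the groups had been viewed, these calls, p-values and overlaps are not those of an unselected set.

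Plat was at 251, 204 and 105 CPM in the kept control IgG libraries and at 99.1, 94.9 and 68.0 CPM in the kept 6-3-A6 libraries. All 3 treated libraries were below the lowest control library, by a small margin. The log2 fold change was -1.12 (SE 0.30; adjusted p = 0.0591, edgeR), and -1.10 (adjusted p = 0.00575) with DESeq2. In edgeR without the filter on low counts it was -1.11 (adjusted p = 2.96e-04), and without control IgG IP 5 it was -1.40 (adjusted p = 0.0197). Without control IgG IP 2 it was -0.82 (adjusted p = 0.173). With the endothelial marker level as a covariate, a level that did not overlap between these groups, it was -1.30 (adjusted p = 0.499). Over all 10 IP libraries it was -0.76 (SE 0.25; unadjusted p = 0.0101), where no gene was called. In the inputs Plat measured -0.37 (SE 0.19; unadjusted p = 0.0740), with the same sign as in the IP fraction.

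Tfpi was at 50.6, 25.3 and 33.0 CPM in kept control IgG libraries and at 60.1, 51.4 and 60.5 CPM in kept 6-3-A6 libraries. The treated libraries were all higher, with a log2 fold change of 0.63 (SE 0.25; adjusted p = 0.182, edgeR), or 0.98 (adjusted p = 0.0420) without control IgG IP 2. Over all 10 libraries the difference was -0.01 (SE 0.36; unadjusted p = 0.983). The mean log2 CPM of endothelial markers in the kept libraries was 7.88 ± 0.15 (SD, n = 3) under 6-3-A6 and 6.73 ± 0.79 under control IgG (exact permutation test, two-sided p = 0.1, the smallest that 3 against 3 allows), and over all 10 libraries 7.38 ± 0.97 and 7.30 ± 0.96 (n = 5; exact permutation p = 0.913). In the kept libraries every 6-3-A6 marker level (7.71 to 7.99) was above every control IgG level (5.95 to 7.53). A fit with the marker level as a covariate therefore cannot tell that level and treatment apart. In that fit the Tfpi value was -0.05 (SE 0.29; adjusted p = 0.986, edgeR). That of Vwf went from 0.48 (SE 0.45) to -0.82 (SE 0.39) and that of Procr from 0.51 (SE 0.28) to -0.22 (SE 0.34), none of them called. Without the covariate, leaving out 1 of the 6 libraries moved Vwf between 0.11 (without control IgG IP 4) and 1.22 (without control IgG IP 2), and Procr between 0.36 (without control IgG IP 5) and 0.95 (without control IgG IP 2).

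The other genes did not pass the test. In the kept libraries F3 measured 5.35 ± 1.44 CPM under control IgG and 3.02 ± 1.20 CPM under 6-3-A6 (SD, n = 3), a log2 fold change of -0.84 (SE 0.35; adjusted p = 0.216, edgeR). Plau was at 168 ± 79.1 and 102 ± 17.4 CPM (-0.75, SE 0.30; adjusted p = 0.195), and was called only without the filter on low counts (-0.74, adjusted p = 0.0420), where 5.44% of genes were called. F8 (-0.70, SE 0.37), Thbd (-0.49, SE 0.27) and Plaur (-0.14, SE 0.23) had lower values under 6-3-A6 that did not pass. Leaving out 1 library moved F3 between -1.05 (without control IgG IP 5) and -0.54 (without 6-3-A6 IP 4), Plau between -0.99 (without control IgG IP 5) and -0.28 (without control IgG IP 2), F8 between -0.91 (without 6-3-A6 IP 1) and -0.22 (without control IgG IP 5), and Thbd between -0.63 (without control IgG IP 4) and -0.11 (without control IgG IP 2). Markers of other cell types differed as well in these 6 libraries. Of the 10 macrophage markers tested 6 were called lower (median -0.98), and their summed level was 6426 to 7539 CPM under control IgG and 3174 to 3784 CPM under 6-3-A6. Fibroblast markers (2 of 7 called lower, median -0.95) summed to 1204 to 2638 CPM under control IgG and 566 to 1233 CPM under 6-3-A6. The 6 epithelial markers (2 called lower, median -0.98) summed to 318 to 387 CPM and 167 to 233 CPM. Of 6 mural markers 1 was called lower and 1 higher (median -0.88), with sums of 134 to 203 CPM and 148 to 218 CPM. The defining markers of these 4 cell types were above 0 in all libraries. Their part in the values of Plat, F3 and Plau was not tested.

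Across all 10 IP libraries, none of the 13602 genes was called by edgeR or DESeq2 (0.0%), and 292 (2.15%) had an unadjusted p under 0.05 in edgeR. All 9 members had values below 0, from -0.76 for Plat through -0.67 (SE 0.36) for Plau, -0.49 (SE 0.26) for Plaur, -0.46 (SE 0.33) for F8, -0.40 (SE 0.47) for Vwf, -0.40 (SE 0.32) for F3, -0.35 (SE 0.27) for Thbd and -0.24 (SE 0.41) for Procr to -0.01 for Tfpi. The median over all genes tested was 0.01. Several members ran together across these libraries, so the 9 signs are not separate results. Plat was the only one of the 9 with an unadjusted p under 0.05, and the groups overlapped for all 9 (0.206% of all genes did not overlap). The sign of Tfpi turned with DESeq2 (0.01). Leaving out 1 library moved these values both ways. Vwf ranged from -0.65 (without control IgG IP 4) to -0.14 (without control IgG IP 3), and Thbd from -0.58 with 6-3-A6 IP 5 left out to -0.20 with control IgG IP 2 left out. Plau ranged from -0.98 (without 6-3-A6 IP 5) to -0.41 and Plaur from -0.63 (without control IgG IP 5) to -0.22, both upper ends without control IgG IP 1. F8 ranged from -0.63 (without control IgG IP 1) to -0.12 (without control IgG IP 5), F3 from -0.54 (without control IgG IP 1) to -0.23 (without 6-3-A6 IP 4) and Plat from -0.87 to -0.55.

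In the inputs, none of 13683 genes was called by edgeR or DESeq2 (0.0%), 180 (1.32%) had an unadjusted p under 0.05 in edgeR, and no member did. The groups overlapped for all 9 members (0.197% of all genes did not overlap). Plaur was at 113 ± 38.3 CPM under control IgG and 75.6 ± 25.1 CPM under 6-3-A6 (SD, n = 5; log2 fold change -0.59, SE 0.28, unadjusted p = 0.0558). Plau was at 149 ± 54.0 and 104 ± 43.8 CPM (-0.53, SE 0.30). F3 was at 5.98 ± 2.94 and 8.16 ± 2.63 CPM (0.44, SE 0.33), a sign opposite to that in the IP fraction. Leaving out 1 input moved F3 between 0.25 (without 6-3-A6 input 1) and 0.76 (without control IgG input 3). Without control IgG input 1, Plaur was at -0.37, Plau at -0.32 and Thbd at -0.07. Vwf (-0.13, SE 0.26), Procr (0.05, SE 0.23), Tfpi (-0.04, SE 0.25), F8 (0.02, SE 0.39) and Thbd (-0.23, SE 0.23) lay near 0 relative to their errors.

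**Figure D4:**
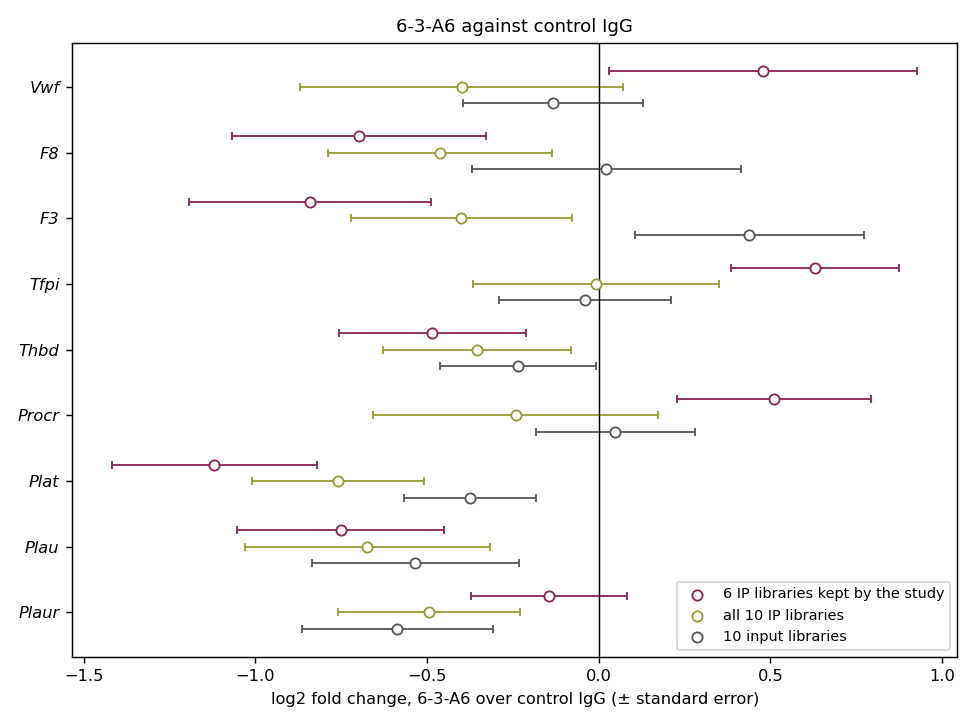
Log2 fold change of 6-3-A6 over control IgG for the 9 genes, with standard errors, in the 6 IP libraries that the study kept (purple), all 10 IP libraries (olive) and the 10 inputs (gray). All points are open because none passed an adjusted p of 0.05. Vwf, Procr and Tfpi lie above 0 in the kept libraries and at or below 0 over all IP libraries (Tfpi at -0.01). Plat, Plau, Plaur and Thbd are below 0 in all 3 sets.

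Other genes of the same pathways were read from lists, whose counts stand beside the 19.6% of all tested genes called higher and the 20.8% called lower in IP. Of 15 coagulation factors and fibrinogen chains, made mostly by liver, 6 passed the filter and 4 were lower in IP than in input, none higher: F10 (-0.84, SE 0.20), F9 (-1.12, SE 0.37) and F7 (-0.77, SE 0.28) had the lowest adjusted p. Among 6 tested genes of the list of coagulation inhibitors 2 were higher and 1 lower. They were Tfpi2 (2.17, SE 0.34), a homolog of Tfpi, Pros1 (0.71, SE 0.18) and, on the lower side, C1qbp (-0.72, SE 0.13). C1qbp is not an established inhibitor of coagulation. Of 11 tested genes of the plasminogen system 2 were higher and 4 lower, among them S100a10 (-0.80, SE 0.13), a subunit of a plasminogen receptor complex, Plgrkt (-0.61, SE 0.18), another plasminogen receptor, and Vldlr (-0.50, SE 0.16), a receptor that clears activator complexes. The list thus moved both ways.

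Of 14 tested genes listed for the handling and partners of von Willebrand factor and factor VIII, 7 were higher in IP and 2 lower. These counts again stand beside 19.6% and 20.8% of all genes. Mmrn2, an endothelial matrix protein that is not known as a partner of either factor, was higher by 4.26 (SE 0.35). Myrip, which tethers Weibel-Palade bodies, was higher by 2.55 (SE 0.47). Lman1, the cargo receptor that exports factor VIII from the endoplasmic reticulum, was lower (-0.62, SE 0.13). Of 3 tested genes of vitamin K dependent carboxylation 2 were lower, Gas6 (-0.71, SE 0.19) and Vkorc1l1 (-0.29, SE 0.10). Of 7 platelet-inhibiting products of endothelium 2 were higher and 2 lower, with Nos3, the endothelial nitric oxide synthase, higher by 5.09 (SE 0.45) and the cyclooxygenases Ptgs2 (-1.02, SE 0.27) and Ptgs1 (-0.64, SE 0.18) lower.

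Between treatments, 4 of the 45 tested genes of these lists were called in the 6 kept IP libraries (8.89%, beside 4.61% of all genes). With the endothelial marker level as a covariate 1 gene of all those tested was called there, and 9 genes were called without 6-3-A6 IP 3. That covariate did not overlap between the treatment groups in these libraries, which had been chosen after a look at the separation of the groups. Nos3 was higher under 6-3-A6 (1.34, SE 0.32; adjusted p = 0.0390, edgeR). Ptgs1 (-1.15, SE 0.19; adjusted p = 0.0178), Vldlr (-0.83, SE 0.20; adjusted p = 0.0417) and the clearance receptor Stab1 (-0.91, SE 0.23; adjusted p = 0.0495) were lower. In the same libraries 3 of the 12 endothelial markers were called higher, with a median of 0.85 over the 12. Called lower were 6 of 10 macrophage markers (median -0.98), 2 of 7 fibroblast markers (median -0.95) and 2 of 6 epithelial markers (median -0.98). Of 6 mural markers 1 was lower and 1 higher. The part of these cells in the values of the 4 genes was not tested. Over all 10 IP libraries Nos3 was at 0.11 (SE 0.53) and Stab1 at -0.19 (SE 0.29), while Ptgs1 was at -0.60 (SE 0.25) and Vldlr at -0.75 (SE 0.20). No gene of any list was called over all 10 IP libraries or in the inputs.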

How the data were processed

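The authors aligned the reads with STAR 2.7.4a and counted them with featureCounts (2.0.1 in the methods, with 1.5.2 also named in the submitters' processing notes). Raw counts per gene over gene spans were deposited by the authors for 20 libraries, and the deposited length column equals the span. A second deposited table holds DESeq2 results of 3 against 3 IP libraries. Its log2 fold changes with their standard errors, its score column (a test statistic) and its p-values are the authors' own comparison and were not used. Its normalized signal, deposited per library, is the raw count divided by a constant for 100% of genes (relative tolerance 1e-06), and was used only to find which libraries the study had kept. Strandedness of the counting is not given in the sources used here.

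Columns were assigned by sample title, since the labels' short description names the opposite fraction for the 6-3-A6 samples, and no column of per-sample values lacked a sample (0 such columns). Endothelial markers checked that assignment.

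Counts were tested with edgeR 4.0.16 (R 4.3.3): filterByExpr, TMM, quasi-likelihood F test, Benjamini-Hochberg adjustment over all tested genes, threshold 0.05. The standard error is the absolute log2 fold change divided by the square root of F. IP was compared with input over 20 libraries with treatment as a term, and within each treatment in a 4-group model that also gave the interaction; 6-3-A6 was compared with control IgG in the kept IP libraries, all IP libraries and inputs. Log2 CPM used a prior count of 2. DESeq2 1.42.0, RLE scaling, no filter, a replicate block, an endothelial covariate, the kept tumors alone and leaving out each tumor or library were alternatives. The scripts were tested on simulated data. Input and IP of a number come from the same animal: their deviations correlated with r from -0.08 to 0.70. Members, gene lists, motifs and tests were chosen with earlier results of these data known. The text names all 9 members, the up to 3 genes of each list with the lowest adjusted p among those called in IP against input, any list gene called between treatments, and the 3 genes most like each member.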

Additional observations from a re-analysis of the deposited data

Results flagged for a closer look

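Of 40 groups of 5 libraries examined (9 genes and the endothelial marker mean, in 4 groups each), 3 held a library whose distance from the rest passed Dixon's 95% critical value of 0.71, and chance marks about 1 in 20 groups. Tfpi in 6-3-A6 IP 2 was at 14.7 CPM, against 51.4 to 60.5 CPM in the other 4 libraries of the group. The endothelial markers of the same library had a mean log2 CPM of 5.67, against 7.62 to 7.99. F3 in 6-3-A6 IP 4 was at 1.63 CPM, from 31 reads, against 3.35 to 4.21 CPM in the others.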

How the results depend on the processing

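Vwf, Tfpi and Procr kept direction and call in IP against input over both treatment groups under every alternative run, and none of the 9 genes was called between treatments over all IP libraries or in the inputs under any. Leaving out tumors gave 5 to 6 members called over both groups (4965 to 6054 genes), 2 to 3 in control IgG tumors (770 to 2322 genes; 770 without tumor 3, 857 without 2, 1003 without 1 and 1059 without 5) and 4 to 5 in 6-3-A6 tumors (2654 to 3892 genes). In the kept IP libraries leaving out a library gave 0 to 1 members (9 to 653 genes; 9 without 6-3-A6 IP 3, 161 without 6-3-A6 IP 4, 188 without control IgG IP 4 and 345 without 6-3-A6 IP 1). With only the tumors kept by the study, 3 members and 3416 genes were called over both groups, and 607 genes in control IgG tumors, where F3 turned to 0.040. In the kept IP libraries DESeq2 called 1190 genes and 1 member, edgeR without the filter 1459 genes and 2 members, and edgeR with the endothelial covariate 1 gene and 0 members, with Vwf at -0.82, Procr at -0.22 and Tfpi at -0.046. The covariate did not overlap between the treatment groups in the kept IP libraries. The causes were not tested.

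With the replicate block, which pairs input and IP of a tumor, 3249 genes were called in control IgG tumors, with F8 at 0.83 (adjusted p = 0.0412), and the block changed no other member's call. Between treatments the numbers are only names (r of deviations from -0.33 to 0.37), and the block left 0 genes called in all IP libraries and in the inputs, with F8 at -0.062 in the inputs. The kept IP libraries share only number 4, so no paired fit was made there.

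Uncalled values near 0 changed sign. Plaur in 6-3-A6 tumors went to 0.0076 without the filter and 0.21 with the kept tumors, and ranged from -0.31 to 0.041 over left-out tumors. Tfpi over all IP libraries went to 0.0072 with DESeq2, 0.0031 with RLE and 0.0062 without the filter (leaving out a library, -0.16 to 0.22). In the inputs, without the filter, Procr was -0.0085 and F8 -0.031, and with the kept tumors Vwf was 0.017, Tfpi 0.20 and F8 -0.10. Leaving out a library gave ranges there of -0.33 to 0.035 (Vwf), -0.12 to 0.17 (Procr), -0.25 to 0.10 (Tfpi) and -0.21 to 0.20 (F8). The interaction with the kept tumors was 0.46 for Vwf and 0.10 for Procr, and ranged over left-out tumors from -0.39 to 0.059 (Thbd), -0.44 to 0.012 (Procr), -0.17 to 0.14 (Tfpi) and -0.18 to 0.20 (Plaur). Procr over all IP libraries ranged from -0.40 to 0.10, and Plaur in the kept libraries from -0.33 to 0.046. The difference of the endothelial marker mean ranged from 0.76 to 1.55 in the kept libraries, from -0.25 to 0.51 over all IP libraries and from -0.37 to 0.0014 in the inputs. F8 and F3, with at most 159 and 209 reads per library, limit what depth can resolve.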
